A study of Mus musculus with 16 samples.

Results

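The imprinted growth genes are 10 genes that control or accompany fetal growth and are expressed from only 1 parental allele in many tissues: H19, Igf2, Ascl2, Kcnq1ot1, Cdkn1c, Slc22a18, Phlda2, Dlk1, Meg3 and Peg3. They were found in the counts by their Ensembl identifiers, and all 10 had a row among the 55487 genes listed. They were selected on the measured counts, with the levels and changes of these genes over the 4 groups already known, so what is given below for the 10 genes is a description and no test is read from it. The first 7, H19 to Phlda2 in the order above, lie in the imprinted cluster of distal chromosome 7 (7 of the 55 genes annotated between Lsp1 and Osbpl5). Peg3 lies near the other end of chromosome 7, and Dlk1 and Meg3 share a domain on chromosome 12.

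The libraries were made from cultured slices of the heart, without its apex and base, of male mice aged 8 weeks (4 mice per genotype from 2 litters). The 16 libraries form 4 groups of 4. Swhtr null treated and Swhtr null untreated slices came from Swhtr3xpA/3xpA mice, which carry a transcriptional stop signal on both alleles of the heart lncRNA Sweetheart (Swhtr). WT treated and WT untreated slices came from C57Bl6/J mice. Treated slices spent 7 days at 3% oxygen and then 7 days at 21% oxygen, and untreated slices spent 14 days at 21% oxygen. The null line goes back to hybrid 129S6/C57BL6 embryonic stem cells backcrossed to C57BL6J and was bred homozygous by homozygous, so strain differences that remained cannot be told apart from the Swhtr allele. Each genotype gave 2 groups of 4 libraries from 4 mice, so libraries of 1 genotype share mice. Which library came from which mouse is not stated. The main fit treats the libraries as independent, and the p-values below measure the spread between libraries, not between mice. The counts hold no row for Swhtr, and the genotypes could not be checked in them.

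The libraries held 17830351 to 29941903 counts, and no pair of libraries was a duplicate. Levels are given as CPM, the count scaled to a common library size after TMM normalization, which corrects for differences in composition. Although the tissue is heart, the 9 cardiomyocyte markers (Myh6, Tnnt2 and others) summed to only 6.88 to 93.8 CPM in Swhtr null treated, 4.87 to 10.9 CPM in Swhtr null untreated, 6.81 to 45.0 CPM in WT treated and 5.83 to 20.5 CPM in WT untreated slices. Fibroblast markers (8 genes, among them Col1a1 and Dcn) summed to 13837 to 18858 CPM and macrophage markers (8 genes, among them Csf1r and Lyz2) to 3895 to 12068 CPM over the 16 libraries. In WT untreated slices 2 of the 9 cardiomyocyte markers were at 0 counts. Cardiomyocyte markers were thus nearly absent beside those of other cells, and in bulk RNA fewer cells of a type and less RNA per cell cannot be told apart. The library Swhtr null treated 2 had the lowest macrophage sum and the highest cardiomyocyte sum of all 16.

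Imprinted genes carry methylation marks set in egg or sperm, which leave 1 parental copy active. At the H19 and Igf2 locus, an insulator between the genes is methylated on the paternal copy, so that H19 is read from the maternal and Igf2 from the paternal chromosome with the same enhancers. In the neighbouring domain, the paternally expressed lncRNA Kcnq1ot1 silences maternally expressed genes around it in cis, among them the cell cycle inhibitor Cdkn1c, the transporter Slc22a18, the placental growth repressor Phlda2 and, in placenta, the transcription factor Ascl2. Many of these genes are high in the fetus and fall after birth. The reads carry no parental label, so the counts give the summed level of both alleles.

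The 10 genes differed widely in level per length of transcript. H19 led with a mean of 28 CPM per kb of exon over the 16 libraries, followed by Meg3 (10.6), Cdkn1c (5.27), Peg3 (2.39), Slc22a18 (1.44), Igf2 (0.482), Ascl2 (0.458), Kcnq1ot1 (0.0933), Phlda2 (0.0353) and Dlk1 (0.0141 CPM per kb). Neighbours in this order overlapped in their ranges over the 16 libraries, except that every library had more Meg3 per kb than any had Cdkn1c. Against all 24971 genes tested, the mean CPM of Meg3 exceeded that of 96.5% of genes and the mean CPM of H19 that of 87.5%, whereas Dlk1 and Phlda2 exceeded 16.6% and 6.04%. All 10 genes passed the filter of at least 10 counts in all, Phlda2 with 13 and Dlk1 with 30 counts. On either side of a mean of 1 CPM stood Slc22a18 (2.45 CPM) and Ascl2 (0.743 CPM).

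Ascl2 and Slc22a18 passed the test between treated and untreated Swhtr null slices, in opposite directions, and their promoter sequences are shown for that reason. Both windows are from RefSeq (GRCm38.p6), read 5′ to 3′ on the strand of the gene, and end at the base before the gene's start. The Ascl2 window (chr7:142969265-142969514, minus strand) and the Slc22a18 window (chr7:143473539-143473735, plus strand) carry in capitals each match on either strand to GGGCGG (a GC box), to ACGTG (the core of the hypoxia response element) and to CAGCTG (an E-box, the kind of site bound by basic helix-loop-helix factors).
Ascl2: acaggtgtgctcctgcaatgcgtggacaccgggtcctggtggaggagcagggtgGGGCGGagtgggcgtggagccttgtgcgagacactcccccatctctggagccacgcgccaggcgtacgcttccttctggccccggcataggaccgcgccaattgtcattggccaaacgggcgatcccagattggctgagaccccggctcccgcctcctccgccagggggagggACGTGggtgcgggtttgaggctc
Slc22a18: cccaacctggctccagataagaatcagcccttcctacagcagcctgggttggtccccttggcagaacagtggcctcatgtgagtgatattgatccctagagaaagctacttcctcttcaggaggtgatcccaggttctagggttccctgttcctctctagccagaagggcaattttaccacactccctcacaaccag

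The pair differ in base composition. Over the full RefSeq window of 300 bases around the start, Ascl2 had 67% G+C and 23 CpG and Slc22a18 had 54.7% G+C and 2 CpG, against medians of 52.7% and 7 CpG over 32851 windows. Fewer CpG were found in 78.5% of all windows than in that of Ascl2 and in 14.1% than in that of Slc22a18. The Ascl2 window held 1 GC box and 1 ACGTG, and the Slc22a18 window held none of the 3 motifs. Of all windows, 35.7% held GGGCGG, 19.6% held ACGTG and 16.3% held CAGCTG, so each match is common. RefSeq windows were given for 8 of the 10 genes, 12 windows in all, of which 4 held ACGTG, 4 held GGGCGG and 1, that of Phlda2, held CAGCTG. A match is only a match of letters.

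H19 is also the host of a miRNA, whose mature arms lie inside its exon on chromosome 7 (RefSeq, GRCm38.p6, seed bases 2 to 8 in capitals). The 5p arm lies at chr7:142577112-142577133 and the 3p arm at chr7:142577078-142577099, both on the minus strand. They have different seeds.
mmu-miR-675-5p: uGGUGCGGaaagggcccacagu
mmu-miR-675-3p: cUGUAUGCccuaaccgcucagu

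The row of the miRNA gene Mir675 itself was at 0 counts in all 16 libraries. H19 is thus the readout for the transcript that contains it, and the level of the mature miRNA was not measured.

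H19 (chromosome 7, 142575529 to 142578143, minus strand, GRCm38, a lincRNA) was on average highest in WT untreated and lowest in Swhtr null treated slices, but single libraries spread widely. It was at 28.3, 75.4, 39.8 and 27.0 CPM in the Swhtr null treated libraries, against 90.3, 34.6, 81.6 and 24.4 CPM in the Swhtr null untreated libraries. Untreated null libraries thus fell into a high and a low pair, and both groups overlapped. In WT treated libraries H19 was at 52.4, 78.9, 41.1 and 89.5 CPM, against 82.0, 77.6, 173 and 106 CPM in WT untreated libraries. WT untreated 3 was the highest of all 16, and WT groups overlapped as well. On the log2 scale the fitted change of H19 in treated over untreated slices was -0.44 (standard error 0.48) in Swhtr null and -0.74 (standard error 0.48) in WT slices. The difference of Swhtr null over WT was -0.62 (standard error 0.48) in treated and -0.92 (standard error 0.48) in untreated slices. Leaving out WT untreated 3 brought the change in WT slices to -0.43 and the difference of untreated slices to -0.61. The change in Swhtr null slices lay between -0.86, without Swhtr null treated 2, and -0.14, without Swhtr null untreated 1, and the difference of treated slices between -1.04, without Swhtr null treated 2, and -0.43, without WT treated 4.

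Igf2 (chromosome 7, 142650766 to 142666816, minus strand), the paternally expressed fetal growth factor that signals through the IGF1 receptor, followed the same libraries at a much lower count. It was at 0.412, 3.30, 1.53 and 0.398 CPM in Swhtr null treated libraries, against 4.61, 0.225, 4.34 and 0.923 CPM in Swhtr null untreated libraries. The same pair of untreated null libraries was high as for H19. WT treated libraries had 1.17, 3.73, 1.29 and 2.99 CPM, against 3.10, 2.21, 9.06 and 4.86 CPM in WT untreated libraries. Over a group these are only 155 counts in Swhtr null treated, 207 in Swhtr null untreated, 213 in WT treated and 396 in WT untreated slices. For Igf2 the log2 fold change of treated over untreated slices was -0.83 (standard error 0.85) in Swhtr null and -1.07 (standard error 0.81) in WT slices, and the value in WT slices was -0.56 without WT untreated 3. Between genotypes, Swhtr null over WT was -0.68 (standard error 0.85) in treated and -0.92 (standard error 0.81) in untreated slices, and -0.41 for untreated slices without WT untreated 3. The change in Swhtr null slices was -1.66 without Swhtr null treated 2 and -0.37 without Swhtr null untreated 1. For treated slices the genotype difference was -1.51 without Swhtr null treated 2 and -0.35 without WT treated 2. The annotation places a predicted gene, Gm49394, on 62.8% of the exon bases of Igf2 on the same strand, and the row of Gm49394 was at 0 counts. The sources do not say how reads in shared bases were counted, and what this does to the level of Igf2 and to its ratio with H19 was not tested.

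Across the 16 libraries H19 and Igf2 moved together (Pearson r = 0.92 and Spearman rho = 0.91 on log2 CPM, and r = 0.93 without the 2 libraries farthest from the median of H19). The same was seen within the groups, with r = 0.89 after each group's mean was taken off. The ratio of H19 to Igf2 counts was 26.4 in the median library and lay between 18.8, in Swhtr null untreated 3, and a highest value of 154. The highest was that of Swhtr null untreated 2, which had only 4 counts of Igf2. These are descriptions over libraries that share mice and the normalization.

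**Figure D1:**
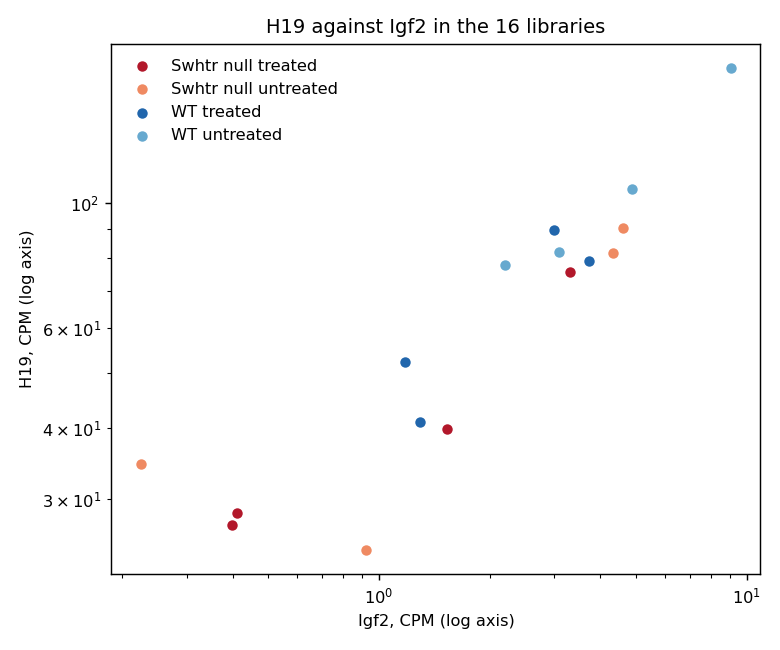
H19 against Igf2, both as CPM on log axes, with 1 point for each of the 16 libraries coloured by group. Libraries high in one were high in the other, and Swhtr null untreated 2 lies farthest left at 0.225 CPM of Igf2.

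Of 12464 other genes with a mean of at least 1 CPM, those with the pattern most like H19 were Gpr182 (r = 0.95), Igf2 (0.92) and Plagl1 (0.92). Plagl1 is itself imprinted and encodes a zinc finger protein that is known in mouse to bind and activate the H19 and Igf2 locus. It averaged 7.97 ± 2.95 CPM in Swhtr null treated and 7.43 ± 3.06 CPM in Swhtr null untreated slices (SD, n = 4 each). In WT treated slices it averaged 11.3 ± 3.11 CPM and in WT untreated slices 15.8 ± 3.71 CPM (SD, n = 4 each). Its log2 fold change of Swhtr null over WT was -1.08 (standard error 0.34) in untreated slices, which did not pass the test (adjusted p = 0.90 from edgeR). Most like Igf2 were H19, Med26 (r = 0.87) and Sost (r = 0.85). Without the 2 libraries farthest from the median of Igf2, Med26 had 0.76 and Sost 0.77. Here and for each gene below, these are the 3 highest values among 12464 genes over 16 libraries. They were picked for being high, so no test is read from them.

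Kcnq1ot1 (chromosome 7, 143203458 to 143296549, minus strand), the lncRNA that silences its domain in cis, varied least relative to its level of those of the 10 genes on distal chromosome 7. It was at 10.4, 9.87, 8.28 and 9.11 CPM in Swhtr null treated libraries, against 8.10, 8.10, 7.03 and 7.33 CPM in Swhtr null untreated libraries. All treated null libraries lay above all untreated ones, by little. WT treated libraries had 7.00, 8.96, 8.81 and 9.18 CPM, against 8.34, 10.9, 10.3 and 7.27 CPM in WT untreated libraries, which overlapped. Kcnq1ot1 had a fitted log2 fold change of treated over untreated slices of 0.30 (standard error 0.14) in Swhtr null and -0.12 (standard error 0.14) in WT slices. Its transcript runs antisense within Kcnq1, a potassium channel gene, and shares 121 exon bases with it. The whole span of Kcnq1ot1 lies inside that of Kcnq1 (143106362 to 143427042, plus strand), introns included. Whether reads were counted by strand is not known. What this does to the level of Kcnq1ot1 and to its correlation with Kcnq1 was not tested. Over the 16 libraries Kcnq1ot1 and Kcnq1 had r = 0.01. Kcnq1 averaged 7.03 ± 1.31 CPM in Swhtr null treated and 6.15 ± 0.842 CPM in Swhtr null untreated slices (SD, n = 4 each). Most like Kcnq1ot1 were Fam120c (r = 0.88), Bnc2 (0.84) and Ccar2 (0.83).

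Ascl2 (chromosome 7, 142966829 to 142969264, minus strand) encodes a basic helix-loop-helix transcription factor needed for placental trophoblast and known as a marker of intestinal stem cells. It was a low-count gene, with 250 counts in all. It was at 0.321, 0.254, 0.373 and 0.0796 CPM in Swhtr null treated libraries (7, 7, 11 and 2 counts), against 1.22, 0.787, 2.49 and 2.10 CPM in Swhtr null untreated libraries (26, 14, 50 and 41 counts). All 4 treated null libraries lay below all 4 untreated ones. In WT treated libraries Ascl2 was at 0.271, 0.351, 0.292 and 0.758 CPM, against 0.315, 0.420, 0.888 and 0.963 CPM in WT untreated libraries. The WT groups overlapped, and the libraries of the 3 groups other than Swhtr null untreated all stayed below 1 CPM. The means were 0.257 ± 0.128 CPM in Swhtr null treated, 1.65 ± 0.784 CPM in Swhtr null untreated, 0.418 ± 0.229 CPM in WT treated and 0.646 ± 0.326 CPM in WT untreated slices (SD, n = 4 each).

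Ascl2 had a log2 fold change in treated over untreated slices of -2.65 (standard error 0.50) in Swhtr null and -0.63 (standard error 0.50) in WT slices, and the difference of the 2 responses was -2.03 (standard error 0.71). Between genotypes, Ascl2 in Swhtr null over WT was -0.69 (standard error 0.53) in treated and 1.34 (standard error 0.46) in untreated slices. The mean in Swhtr null slices was thus below WT when treated and above WT when untreated, neither past the test. Leaving out each null library in turn kept the change between -2.91 and -2.37. The change in WT slices was -1.08 without WT treated 4 and -0.38 without WT untreated 4, and the genotype difference of treated slices -0.94 without Swhtr null treated 3 and -0.24 without WT treated 4. Smooth muscle and pericyte markers (7 genes) summed to 390 to 656 CPM in Swhtr null treated and 280 to 409 CPM in Swhtr null untreated slices, with a correlation of -0.70 with Ascl2 over the 16 libraries and -0.53 within groups. Macrophage markers summed to 3895 to 9594 CPM in Swhtr null treated and 7662 to 12068 CPM in Swhtr null untreated slices, with a correlation of 0.54 (0.36 within groups). No gene of either list was at 0 in either group. Skeletal muscle markers (6 genes) summed to 3.23 to 6.85 CPM in Swhtr null treated and 5.34 to 10.03 CPM in Swhtr null untreated slices, with a correlation of 0.64 (0.36 within groups), and the defining markers Myod1 and Myog were at 0 in every group. Schwann cell markers had a correlation of -0.54 (0.04 within groups). The part of these cells in the level of Ascl2 was not tested.

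Slc22a18 (chromosome 7, 143473736 to 143499334, plus strand), a membrane transporter of the organic cation family expressed from the maternal copy, differed in the other direction. It was at 2.84, 4.06, 2.55 and 2.82 CPM in Swhtr null treated libraries (62, 112, 75 and 71 counts), against 1.18, 1.91, 1.30 and 1.03 CPM in Swhtr null untreated libraries (25, 34, 26 and 20 counts). All 4 treated null libraries lay above all 4 untreated ones. In WT treated libraries it was at 3.75, 2.72, 4.30 and 2.95 CPM, against 2.47, 2.78, 0.841 and 1.64 CPM in WT untreated libraries. Only the lowest treated and the highest untreated WT library crossed. The means were 3.07 ± 0.678 CPM in Swhtr null treated, 1.35 ± 0.389 CPM in Swhtr null untreated, 3.43 ± 0.728 CPM in WT treated and 1.93 ± 0.873 CPM in WT untreated slices (SD, n = 4 each).

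The log2 fold change of Slc22a18 in treated over untreated slices was 1.19 (standard error 0.30) in Swhtr null and 0.83 (standard error 0.29) in WT slices, with a difference of the responses of 0.35 (standard error 0.42). For Slc22a18, Swhtr null over WT was -0.16 (standard error 0.28) in treated and -0.51 (standard error 0.31) in untreated slices. Both genotype differences were under 2 standard errors. Schwann cell markers (5 genes) summed to 16.1 to 40.4 CPM in Swhtr null treated and 13.7 to 18.1 CPM in Swhtr null untreated slices. Their correlation with Slc22a18 was 0.71 over the 16 libraries and 0.51 within groups. None of the 5 genes was at 0 in either group. Other markers also went with or against Slc22a18. These were skeletal muscle (-0.66, and -0.48 within groups), macrophage (-0.57 and -0.59), cardiomyocyte (0.57 and 0.24) and smooth muscle and pericyte markers (0.56 and 0.43). The part of any of these cells in the level of Slc22a18 was not tested. Over the 16 libraries Slc22a18 ran against Ascl2 (r = -0.79, and -0.58 within groups). Most like Slc22a18 were Scap (r = 0.90), the calcium channel gene Orai2 (0.88) and Nab1 (0.86), with 0.76, 0.78 and 0.62 within groups. Scap senses sterols and escorts the precursor of the transcription factor SREBP.

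Cdkn1c (chromosome 7, 143458339 to 143461050, minus strand) encodes p57, a maternally expressed inhibitor of cyclin-dependent kinases that takes cells out of the cycle. It was at 7.01, 2.10, 8.59 and 12.3 CPM in Swhtr null treated libraries, against 13.9, 10.7, 15.6 and 13.7 CPM in Swhtr null untreated libraries. The treated libraries were on average lower and far more spread, and the highest of them lay within the untreated range. WT treated libraries had 11.2, 13.9, 10.1 and 13.1 CPM, against 7.66, 10.2, 10.6 and 11.4 CPM in WT untreated libraries. Here the treated group was on average the higher one, with overlap. The log2 fold change of treated over untreated slices was -0.85 (standard error 0.35) in Swhtr null and 0.28 (standard error 0.35) in WT slices, with a difference of the responses of -1.12 (standard error 0.50). Leaving out Swhtr null treated 2 brought the change in Swhtr null slices to -0.53. Set against WT, Swhtr null was -0.69 (standard error 0.35) in treated and 0.44 (standard error 0.35) in untreated slices.

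Cdkn1c went with the summed macrophage markers over the 16 libraries (r = 0.85), and this rested on 2 libraries, since r was 0.22 without the 2 farthest from the median of Cdkn1c. In Swhtr null treated libraries 1 to 4 the summed macrophage markers were 7224, 3895, 9594 and 7824 CPM beside the Cdkn1c levels just given, against 10389, 7662, 9988 and 12068 CPM in the Swhtr null untreated libraries. No gene of the macrophage list was at 0 in any group. Macrophage markers were not alone in this. Skeletal muscle (r = 0.76), fibroblast (-0.70) and Schwann cell markers (-0.69) also went with or against Cdkn1c over the 16 libraries. Their values were 0.39, -0.54 and -0.44 without the same 2 libraries. The part of any of these cells in the level of Cdkn1c was not tested. The 3 genes most like Cdkn1c were Taldo1 (r = 0.95), Engase (0.95) and Rnf128 (0.94), with r = 0.69, 0.82 and 0.61 without the same 2 libraries. A predicted antisense gene, Gm44732, lies on 30.7% of the exon bases of Cdkn1c and was at 0 counts.

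**Figure D2:**
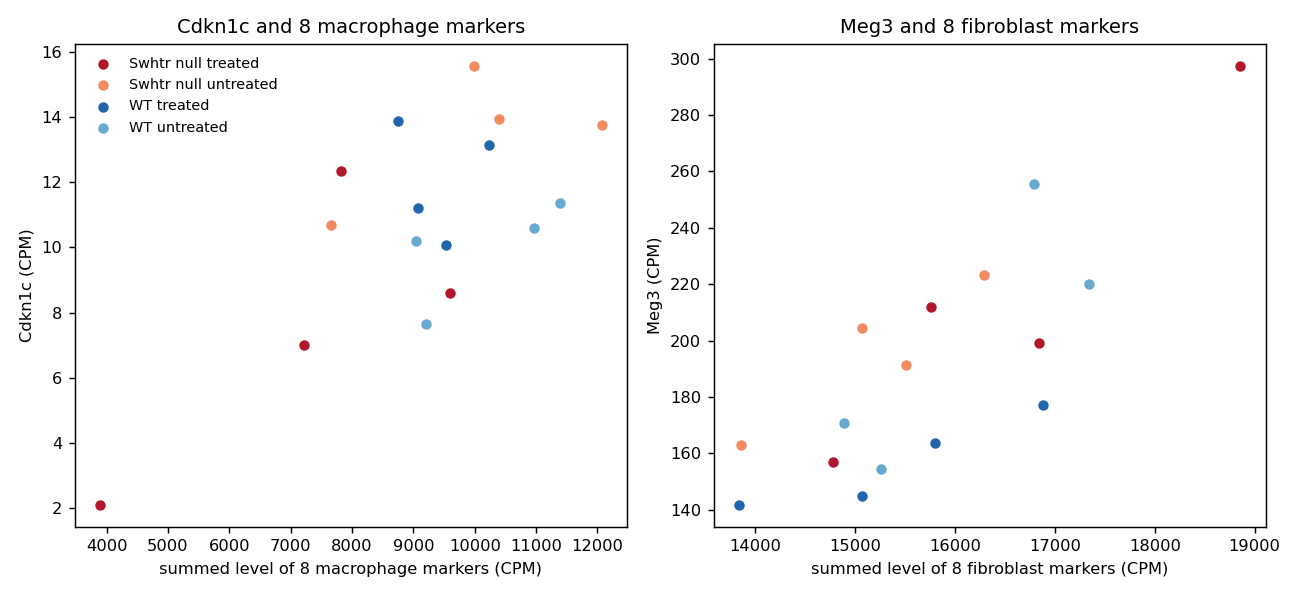
Left, Cdkn1c (CPM) against the summed level of 8 macrophage markers, and right, Meg3 (CPM) against the summed level of 8 fibroblast markers, with 1 point per library coloured by group. Swhtr null treated 2 has the lowest macrophage sum (3895 CPM) with the lowest Cdkn1c (2.10 CPM), and the highest Meg3 (297 CPM).

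Phlda2 (chromosome 7, 143501545 to 143503150, minus strand), a pleckstrin homology domain protein that restrains growth of the placenta, was at the limit of detection. It had 0 counts in all 4 Swhtr null treated libraries, against 3, 1, 0 and 2 counts in the Swhtr null untreated libraries. WT treated libraries had 0, 2, 0 and 0 counts, against 1, 1, 3 and 0 counts in WT untreated libraries. With 3 counts put in place of 0 for the treated group, Swhtr null treated slices would be 2.65-fold lower than untreated ones. This allows for counting error of the treated group but not of the 6 counts in the untreated group, so it is no lower bound. Phlda2 was not called in that comparison (adjusted p = 0.22 from edgeR). Single counts decide every fold change of this gene.

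**Figure D3:**
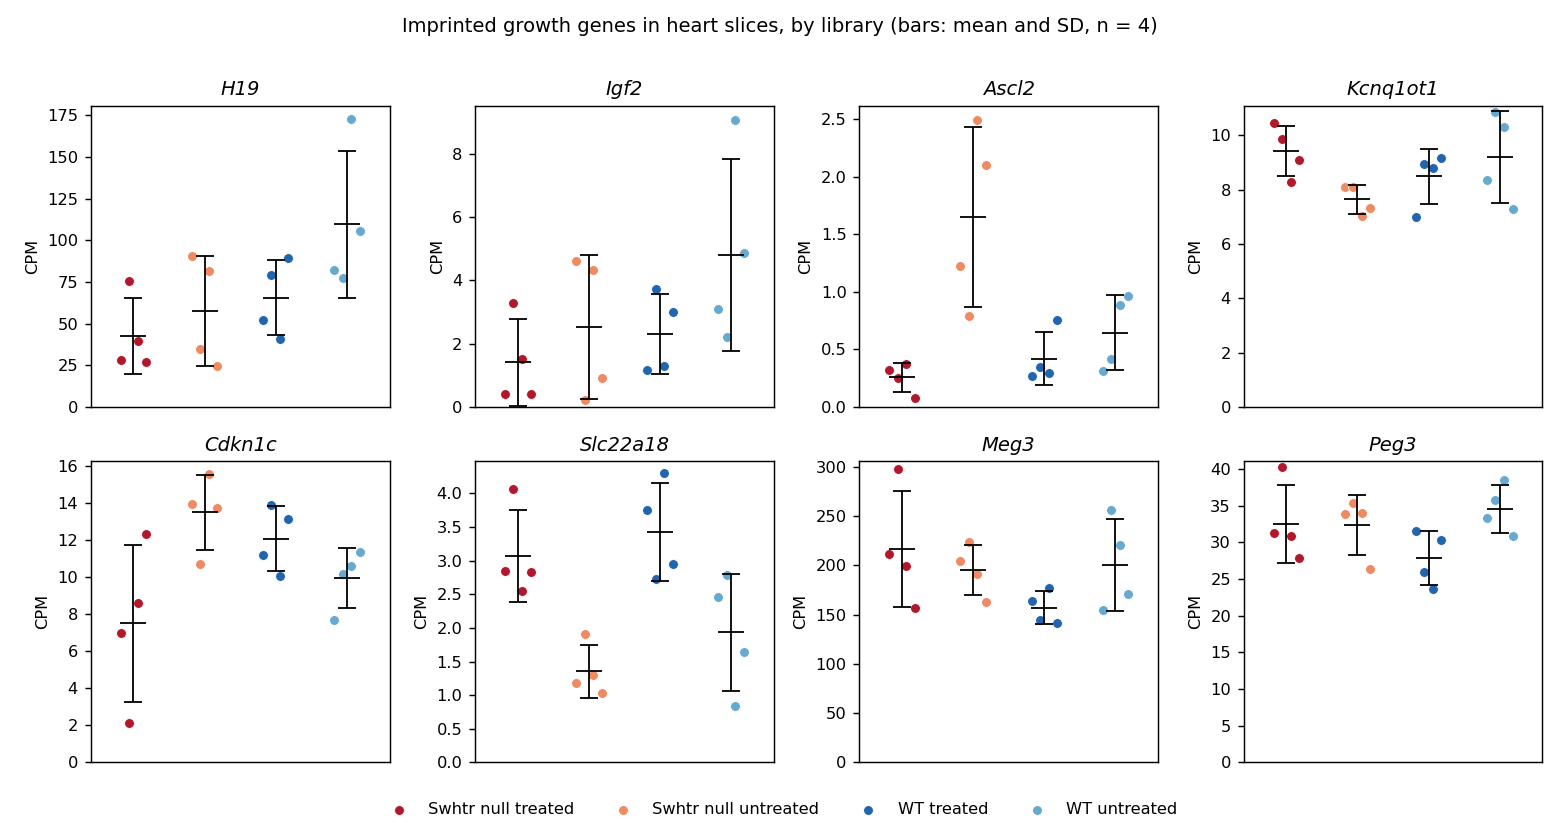
CPM of 8 of the genes in every library, by group, each panel with its own axis from 0; points are libraries and black bars the mean and SD of 4. Ascl2 reaches 0.787 to 2.49 CPM in Swhtr null untreated libraries and at most 0.963 CPM elsewhere, Slc22a18 is at 2.55 to 4.06 CPM in Swhtr null treated and 1.03 to 1.91 CPM in Swhtr null untreated libraries, and H19 and Igf2 share their high and low libraries.

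At the chromosome 12 domain, the maternally expressed lncRNA Meg3 (109541001 to 109571726, plus strand) was the most abundant of the 10 genes by CPM. It was at 212, 297, 199 and 157 CPM in Swhtr null treated libraries, against 204, 223, 191 and 163 CPM in Swhtr null untreated libraries. WT treated libraries had 164, 145, 177 and 142 CPM, against 155, 256, 220 and 171 CPM in WT untreated libraries. All these groups overlapped. Its log2 fold change of treated over untreated slices was 0.15 (standard error 0.19) in Swhtr null and -0.35 (standard error 0.19) in WT slices. In Meg3, Swhtr null over WT was 0.46 (standard error 0.19) in treated and -0.04 (standard error 0.19) in untreated slices. The change in Swhtr null slices was -0.05 without Swhtr null treated 2, a turn of sign, and 0.27 without Swhtr null treated 4. The genotype difference of treated slices was 0.27 and 0.59 without these libraries.

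Meg3 went with Rian, a second maternally expressed RNA of its domain that hosts small nucleolar RNAs (r = 0.92 over 16 libraries, 0.90 within groups and 0.84 without the 2 farthest libraries). The next most alike genes were Col1a2, a fibrillar collagen of fibroblasts, and Dlg4 (r = 0.84 each). The summed fibroblast markers, of which Col1a2 is one, had r = 0.81 with Meg3, 0.87 within groups and 0.68 without the 2 farthest libraries. They ranged between 14774 and 18858 CPM in Swhtr null treated and 13856 and 16287 CPM in Swhtr null untreated slices. In WT treated slices they ranged between 13837 and 16879 CPM and in WT untreated slices between 14891 and 17344 CPM. Other markers also went with or against Meg3 within groups, among them Schwann cell (0.77), mesothelial (0.65) and macrophage markers (-0.64). Over the 16 libraries without the 2 farthest, their values were -0.14, 0.43 and -0.15. The part of any of these cells in the level of Meg3 was not tested. Dlk1 (109452823 to 109463336, plus strand), the paternally expressed membrane protein of the same domain that holds back differentiation, was nearly silent. It had 1, 5, 6 and 0 counts in Swhtr null treated libraries, against 0, 2, 0 and 0 counts in Swhtr null untreated libraries, and 4, 1, 3 and 2 counts in WT treated libraries, against 0, 3, 1 and 2 counts in WT untreated libraries. No difference in Dlk1 was detectable at this depth.

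Peg3 (chromosome 7, 6703892 to 6730431, minus strand), a paternally expressed zinc finger protein, kept within a narrow range. It was at 31.2, 40.2, 30.8 and 27.8 CPM in Swhtr null treated libraries, against 33.8, 35.4, 34.0 and 26.3 CPM in Swhtr null untreated libraries. WT treated libraries had 31.5, 25.9, 23.7 and 30.4 CPM, against 33.3, 35.8, 38.5 and 30.8 CPM in WT untreated libraries. The log2 fold change of treated over untreated slices was 0.01 (standard error 0.12) in Swhtr null and -0.31 (standard error 0.12) in WT slices. In Peg3, Swhtr null over WT was 0.22 (standard error 0.12) in treated and -0.09 (standard error 0.12) in untreated slices. Most like Peg3 were Neb (r = 0.84), Bcar1 (0.84) and Cdc42ep5 (0.83). Without the 2 libraries farthest from the median of Peg3 these were 0.87, 0.77 and 0.69.

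The 10 genes were then read against all genes. A call needed an adjusted p under 0.05 in edgeR's quasi-likelihood test together with a change in either direction by more than 0.58 on the log2 scale (1.5-fold). Between treated and untreated Swhtr null slices, 155 of 24971 genes tested were called (0.621%), among them 2 of the 10 genes, Ascl2 (lower) and Slc22a18 (higher). With the replicate number within genotype as a block, 616 genes were called and the same 2 of the 10. That block was chosen from the data. Same-numbered Swhtr null libraries correlated above those of other numbers for numbers 2 and 4 only. Libraries of both groups did not overlap for 7.32% of all genes and for 3 of the 10, Ascl2, Slc22a18 and Kcnq1ot1. The genes were chosen with this contrast known, and nothing is read from these shares. Ascl2 was called with each of the 8 libraries left out in turn. Slc22a18 was not called without Swhtr null untreated 1, 3 or 4 (log2 fold change 1.12, 1.17 and 1.08) nor without Swhtr null treated 1, 2 or 4 (1.22, 1.02 and 1.22). A fit on the 8 Swhtr null libraries alone called 6 genes in all and neither of the 2, with nearly unchanged log2 fold changes of -2.66 for Ascl2 and 1.18 for Slc22a18.

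In the other comparisons none of the 10 genes was called by edgeR or by DESeq2. For treated over untreated WT slices edgeR called 0 of 24971 genes (0%), with 1202 at an unadjusted p under 0.05, 2 of them among the 10 genes (Slc22a18 and Peg3), and DESeq2 called 9. Libraries did not overlap for 3.67% of all genes and for 0 of the 10. For Swhtr null over WT, 23 genes were called in treated slices (0.0921%) and 25 in untreated slices (0.1%). Among the 10 genes, Meg3 in treated and Ascl2 in untreated slices had an unadjusted p under 0.05, beside 1560 of 24971 genes in treated and 1338 in untreated slices. Libraries of both genotypes did not overlap for 4.06% of genes in treated and 2.86% in untreated slices, and for 0 of the 10 in both. For the difference of the responses edgeR called 0 genes (0%), with 1721 at an unadjusted p under 0.05, 3 of them among the 10 (Ascl2, Cdkn1c and Kcnq1ot1). The comparisons share their groups and are not independent of each other.

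**Figure D4:**
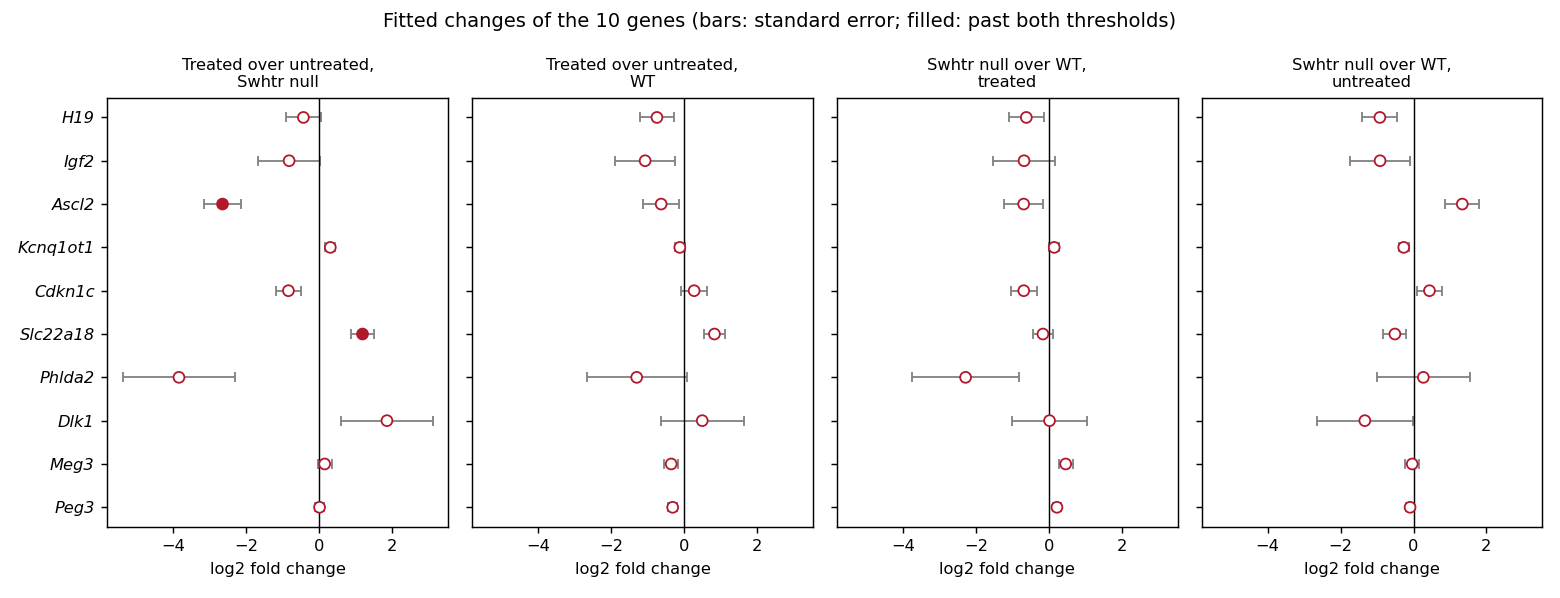
Fitted log2 fold changes of the 10 genes in the 4 comparisons, with standard errors as bars and filled points for genes past both thresholds. Ascl2 (-2.65) and Slc22a18 (1.19) are filled in treated over untreated Swhtr null slices, and no point is filled elsewhere.

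As a group the 10 genes had no common direction. Between treated and untreated Swhtr null slices 5 were higher and 5 lower, with a median log2 fold change of -0.22 beside 0.01 for all genes tested. In WT slices 3 were higher and 7 lower, with a median of -0.33 beside 0.01. In Swhtr null over WT the median was -0.39 in treated slices, where 4 had positive and 6 negative values, and -0.18 in untreated slices, where 3 had positive and 7 negative values. The medians of all genes were -0.00 and 0 in these.

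Along distal chromosome 7 the other genes above a mean of 1 CPM had smaller changes than Ascl2 and Slc22a18 in treated over untreated Swhtr null slices. Of 34 genes tested between Lsp1 and Osbpl5, 7 are of the 10, and 0 of the other 27 were called by edgeR in any of the 5 comparisons. The 16 others above a mean of 1 CPM had log2 fold changes of treated over untreated slices between -0.79 and 0.30 in Swhtr null and between -0.37 and 0.32 in WT slices. In Swhtr null over WT they lay between -0.41 and 0.26 in treated and -0.28 and 0.73 in untreated slices. Ascl2 (-2.65) and Slc22a18 (1.19) lay outside the first of these ranges. The nearest such gene to Ascl2 was Tspan32, a tetraspanin of blood cells named after its value was seen. It had -0.58 in treated over untreated Swhtr null slices, and Nap1l4, a histone chaperone beyond Phlda2, had -0.02. Ascl2 itself averaged 0.743 CPM, and the ranges leave out other genes under 1 CPM. Among those, named after their values were seen, Igf2os had -4.25 (28 counts in all), Gm33148 -1.89 (11 counts) and Gm7290 -1.32 (56 counts), none called. The 10 genes were chosen with this contrast known, so nothing is read from their place outside the range.

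**Figure D5:**
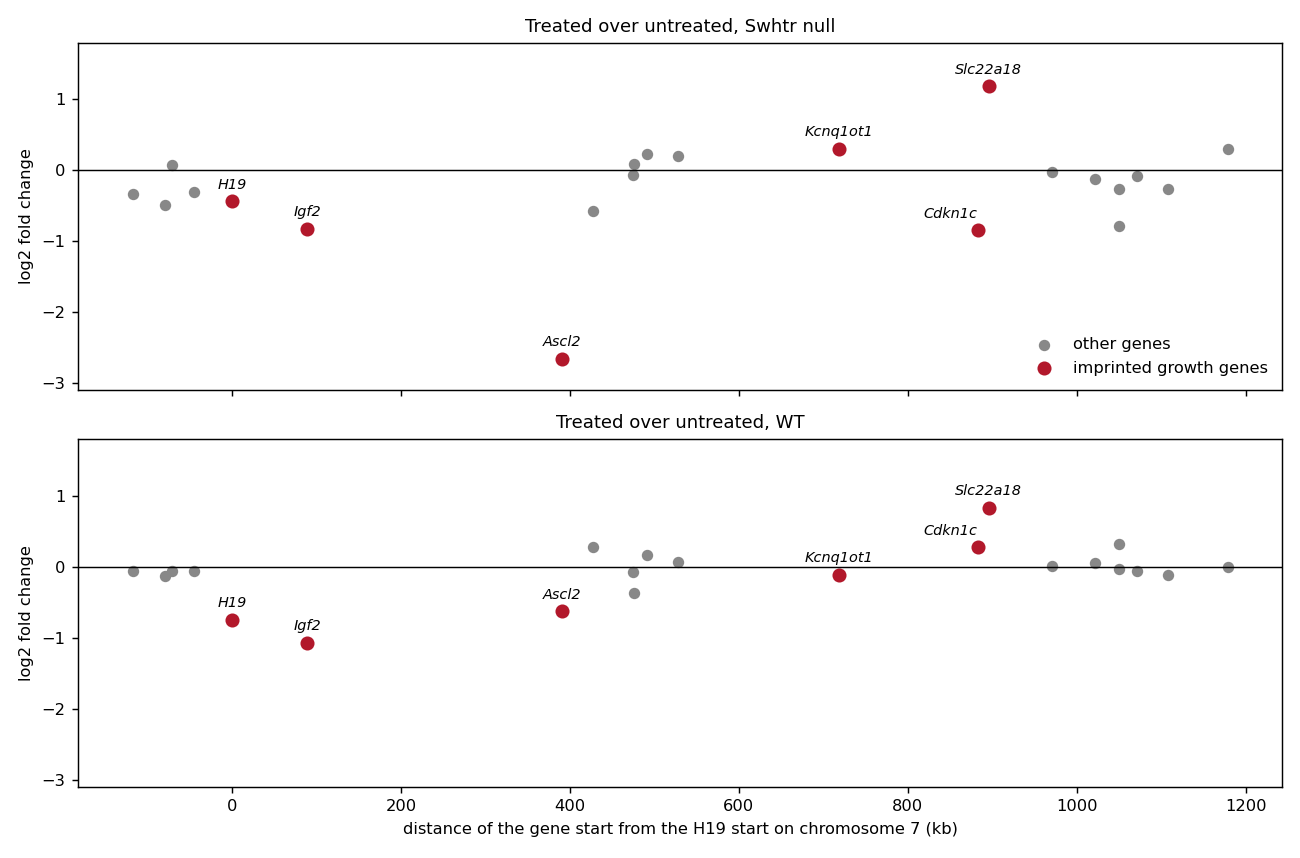
Log2 fold change of treated over untreated slices for genes of distal chromosome 7 with a mean of at least 1 CPM, and Ascl2, by distance of the gene start from the H19 start in kb, in Swhtr null (top) and WT slices (bottom). The 16 genes that are not among the 10 lie between -0.79 and 0.30 in the upper panel, where Ascl2 and Slc22a18 lie at -2.65 and 1.19, and Cdkn1c and Igf2 at -0.85 and -0.83.

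Further genes of the same pathways were read from lists made by function and position. Of 11 other imprinted genes of distal chromosome 7, 9 were tested and 0 were called in any comparison by edgeR, with 3 of them at an unadjusted p under 0.05 between treated and untreated Swhtr null slices. Of all 24971 genes tested, 4127 were at such a p in that comparison, and the counts at an unadjusted p of this and the next lists are to be read beside it. Cd81, a tetraspanin, was the most abundant by CPM, with 278 ± 15.6 CPM in Swhtr null treated and 292 ± 12 CPM in Swhtr null untreated slices (SD, n = 4 each). Nap1l4 had 97.4 ± 3.40 CPM in Swhtr null treated and 99.1 ± 7.30 CPM in Swhtr null untreated slices, and the decoy receptor Tnfrsf23 61.2 ± 5.48 CPM in Swhtr null treated and 73.5 ± 6.64 CPM in Swhtr null untreated slices. Osbpl5, a lipid-binding protein, had 51.2 ± 4.54 CPM in Swhtr null treated and 41.7 ± 7.96 CPM in Swhtr null untreated slices (SD, n = 4 each). None of these 4 differed by more than 0.30 on the log2 scale in that comparison. Of the others, named after their values were seen, Igf2os was at -4.25 on the log2 scale from 28 counts in all. Trpm5 was at 0.81, Tspan32 at -0.58 and Tssc4 at 0.23, and none of these was called. The 3 genes at an unadjusted p under 0.05 were Igf2os, Tssc4 and Osbpl5, so neither Trpm5 nor Tspan32 was among them.

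Of 41 imprinted genes of other domains 37 were tested, and 0 were called in any comparison by edgeR. Between treated and untreated Swhtr null slices 26 were higher and 11 lower, with a median log2 fold change of 0.12 beside 0.01 for all genes, and 6 had an unadjusted p under 0.05 (4127 of all 24971 genes), 5 of them higher. Igf2r, the receptor that clears IGF2, was the most abundant, at 579 ± 26.3 CPM in Swhtr null treated and 521 ± 67.6 CPM in Swhtr null untreated slices (SD, n = 4 each). H13 had 158 ± 3.78 CPM in Swhtr null treated and 166 ± 18 CPM in Swhtr null untreated slices, and Grb10, an adaptor that dampens insulin and IGF receptors, 122 ± 16.7 CPM in Swhtr null treated and 107 ± 12.5 CPM in Swhtr null untreated slices. Mest, a paternally expressed gene of mesoderm, was at 110 ± 38.8 CPM in Swhtr null treated and 64.0 ± 16.3 CPM in Swhtr null untreated slices (SD, n = 4 each). Its change was 0.78 on the log2 scale (standard error 0.23) and did not pass with edgeR (adjusted p = 0.10), but it passed with DESeq2 (adjusted p = 0.0052). With the replicate block its log2 fold change was 0.75 with an adjusted p of 0.013, so it passed there, as it did without Swhtr null untreated 2 (0.97, adjusted p = 0.027). In WT slices it was at 91.8 ± 9.03 CPM in treated and 86.3 ± 12.1 CPM in untreated slices (SD, n = 4 each, log2 fold change 0.09), and the difference of the responses was 0.69 (standard error 0.32, adjusted p = 0.71 from edgeR). Peg12 was at 4.93 ± 0.683 CPM in Swhtr null treated and 3.30 ± 0.138 CPM in Swhtr null untreated slices (SD, n = 4 each, log2 fold change 0.58, adjusted p = 0.055 from edgeR) and passed with DESeq2 (adjusted p = 0.0082) and in edgeR without Swhtr null untreated 2 (0.59, adjusted p = 0.047). Peg12 was named after its values were seen.

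Of 18 genes of the IGF axis (the ligand Igf1, receptors, binding proteins and the proteases that free the ligand) 17 were tested and 0 were called by edgeR in any comparison. Between treated and untreated Swhtr null slices 12 were higher and 5 lower, with a median log2 fold change of 0.24, and 3 were higher at an unadjusted p under 0.05 (4127 of all 24971 genes, in either direction). Fibroblast markers were higher in 8 of 8 genes in the same comparison (median log2 fold change 0.48, 1 called) and smooth muscle and pericyte markers in 7 of 7 (median 0.49, 0 called). Cardiomyocyte (9 of 9, median 2.79), endothelial (7 of 7, median 0.30), adipocyte (5 of 5, median 0.72) and Schwann cell markers (4 of 5, median 0.69) were mostly or all higher too. Macrophage markers were lower in 8 of 8 (median -0.53), skeletal muscle markers in 3 of 4 and mesothelial markers in 3 of 6. The part of any of these cells in these values was not tested. The binding protein Igfbp7 was the most abundant, with 1307 ± 76.6 CPM in Swhtr null treated and 1203 ± 119 CPM in Swhtr null untreated slices (SD, n = 4 each). Igfbp3 had 795 ± 337 CPM in Swhtr null treated and 1047 ± 101 CPM in Swhtr null untreated slices, and the ligand Igf1 554 ± 132 CPM in Swhtr null treated and 643 ± 117 CPM in Swhtr null untreated slices. None of the 3 passed the test. Igfbp3 was lower in treated WT slices too, at 737.5 ± 214.4 CPM against 1126 ± 179.2 CPM in untreated ones (SD, n = 4 each). Of the 17 genes tested, 8 were higher and 9 lower in treated over untreated WT slices, with a median log2 fold change of -0.03. Igfbp5, a binding protein bound to matrix, was at 552 ± 144 CPM in Swhtr null treated and 265 ± 75.7 CPM in Swhtr null untreated slices (SD, n = 4 each), which is 1.06 on the log2 scale (standard error 0.26) and missed the threshold with edgeR (adjusted p = 0.055) but not with DESeq2 (adjusted p = 0.00025). Igfbp5 was higher in treated WT slices too, at 540.7 ± 180.1 CPM against 363.9 ± 57.1 CPM in untreated ones (SD, n = 4 each). That change in WT slices was not called by edgeR. With edgeR the change of Igfbp5 in Swhtr null slices passed when genes were filtered by expression (adjusted p = 0.028). It also passed without Swhtr null untreated 1 (adjusted p = 0.022) and without Swhtr null treated 3 (adjusted p = 0.049). With the replicate block 3 genes of this list passed the test, all higher in treated Swhtr null slices: Igfbp5 (log2 fold change 1.06, adjusted p = 0.0041), Igfbp4 (0.83, adjusted p = 9.7e-07) and Pappa, the protease that cuts IGFBP4 (0.92, adjusted p = 0.013). Igfbp4 also passed in edgeR without Swhtr null untreated 2 (1.19, adjusted p = 0.030) and, with that block, for the difference of the responses (0.59, adjusted p = 0.016), although the numbers of WT libraries were not taken as pairs. Igfbp4 averaged 687 ± 270 CPM in Swhtr null treated and 392 ± 183 CPM in Swhtr null untreated slices, and Pappa 40.1 ± 23.3 CPM in Swhtr null treated and 22.0 ± 15.2 CPM in Swhtr null untreated slices (SD, n = 4 each). In WT slices Igfbp4 had a mean of 529 CPM in treated and 451 CPM in untreated slices. Pappa had a mean of 24.6 CPM in WT treated and 23.9 CPM in WT untreated slices. Igfbp5, Igfbp4 and Pappa were named after their values were seen. Igf2 itself was at 1.41 CPM in Swhtr null treated and 2.53 CPM in Swhtr null untreated slices.

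Cdkn1c belongs with 6 other CDK inhibitors, all tested and none called by edgeR at both thresholds, with 2 lower at an unadjusted p under 0.05 between treated and untreated Swhtr null slices (4127 of all 24971 genes, in either direction). Cdkn1b, which encodes the relative p27, was at 78.5 ± 10.3 CPM in Swhtr null treated and 110 ± 13.3 CPM in Swhtr null untreated slices (SD, n = 4 each). The change, -0.48 on the log2 scale (standard error 0.10), had an adjusted p of 0.013 from edgeR but lay under the fold threshold. In WT slices it was at 79.9 ± 3.49 CPM in treated and 96.1 ± 11.1 CPM in untreated slices (SD, n = 4 each), a log2 fold change of -0.27 that did not pass (adjusted p = 1.0). Cdkn1a, which encodes p21, was at 205 ± 11.3 CPM in Swhtr null treated and 229 ± 24.4 CPM in Swhtr null untreated slices (SD, n = 4 each, log2 fold change -0.16, adjusted p = 0.30 from edgeR). Cdkn2c (log2 fold change 0.29) and Cdkn2d (-0.24) did not pass either. The relatives of Phlda2, Phlda3 (121 ± 11.6 CPM in Swhtr null treated and 103 ± 15.5 CPM in Swhtr null untreated slices) and Phlda1 (8.65 ± 0.698 CPM in Swhtr null treated and 7.96 ± 1.77 CPM in Swhtr null untreated slices; SD, n = 4 each), were called by neither edgeR nor DESeq2, and neither had an unadjusted p under 0.05.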

How the data were processed

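RNA of 16 heart slice libraries was sequenced as paired reads of 150 bp. The authors aligned them with STAR to mm10 (GRCm38) and deposited whole-number counts per gene of Ensembl release 102, made with GenomicAlignments. The strand setting and tool versions are not given in the sources used here. The study's methods name ribosomal RNA depletion with ScriptSeq libraries and the labels a TruSeq mRNA kit. Of 55487 identifiers, 55227 were matched to a symbol and position in GENCODE M21 (GRCm38), and sequences are from RefSeq (GRCm38.p6).

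The 24971 genes with at least 10 counts over the 16 libraries were fitted in R 4.3.3 with edgeR 4.0.16 (TMM, 4 group means, 12 residual degrees of freedom, robust quasi-likelihood test), and p-values were adjusted over all of them by Benjamini and Hochberg. The study used DESeq2, here an alternative (1.42.0). Correlations use log2 CPM with a prior count of 2. The procedure was run on simulated counts of independent libraries, with changes put only into genes with a mean of at least 1 CPM. That run covers neither libraries that share mice nor a gene as low as Ascl2, and nothing is read from it here. Other alternatives were size factors, other filters, no fold threshold, the compared libraries alone, a replicate block and each library left out.

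The members and gene lists were chosen with earlier results of these data known. All 10 members are named, and of each list the 4 most abundant genes, those called, those of a like pattern (3 per member), and others said to be named after their values were seen.

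The labels number the replicates 1 to 4 in every group. In Swhtr null slices, deviations from the group means of same-numbered treated and untreated libraries correlated at 0.15, 0.59, 0.26 and 0.40, so these numbers were taken as pairs. The highest correlation with a library of another number was 0.20, 0.01, 0.33 and 0.33 for numbers 1 to 4, above that of the same number for numbers 1 and 3. The pairing comes from the data, since no source ties numbers to mice. Same-numbered libraries of the 2 genotypes come from different mice. They correlated at 0.10, 0.38, 0.01 and 0.37 in untreated and at 0.31, 0.01, -0.01 and -0.02 in treated slices. What the number follows was not tested, and calls with the block rest on this choice. Libraries held 17830351 to 29941903 counts, which limits precision for the genes with few counts.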

Additional observations from a re-analysis of the deposited data

Results flagged for a closer look

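Among 32 sets of 4 libraries (8 genes in 4 groups), 1 had a library far from the others. Ascl2 was at 0.758 CPM in WT treated replicate 4, against 0.271 to 0.351 CPM in the other 3 WT treated libraries, a gap of 0.835 of the whole range. This is above Dixon's critical value for 4 samples, and chance gives about 1 such set in 20. That library had 18 counts of Ascl2.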

How the results depend on the processing

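Between treated and untreated Swhtr null slices 2 of the 10 genes, Ascl2 and Slc22a18, were called under DESeq2, size factors, filtering by expression, no filter, no fold threshold and both forms of the replicate block (2 each). A fit on the 8 compared libraries alone called 0, with log2 fold changes of -2.66 for Ascl2 and 1.18 for Slc22a18. With 1 library left out the count was 1 to 2. In the other 4 comparisons it was 0 under every alternative run. No called value changed direction.

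Counts over all genes moved more. For Swhtr null slices they were 464 under DESeq2, 544 with no fold threshold, 6 with the compared libraries alone, and 450 with the replicate number as a block across all libraries or 616 with the number within genotype. They were 575 without Swhtr null untreated 2, 49 without untreated 3, 22 without untreated 4, 77 without treated 1, 80 without treated 2 and 300 without treated 3. In WT slices, where same-numbered libraries correlated at -0.11, -0.08, 0.16 and 0.32 and share only a number, DESeq2 called 9 genes and the block within genotype 19. DESeq2 called 39 in treated Swhtr null over WT slices, and the block within genotype 52 for the difference of the responses. The cause was not tested. Mest, Igfbp4, Igfbp5 and Pappa passed with the block within genotype, and Mest, Igfbp5 and Peg12 with DESeq2. Igfbp4 passed with that block for the difference of the responses too (0.59), Igfbp5 with filtering by expression (1.05), without Swhtr null untreated 1 (1.28) and without Swhtr null treated 3 (1.14), and Mest, Igfbp4 and Peg12 without Swhtr null untreated 2 (0.97, 1.19 and 0.59).

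At these depths Phlda2 and Dlk1 rest on single counts, and Ascl2 on 2 to 50 counts per library. Which libraries share a mouse is unknown, and the strand setting leaves overlapping genes unresolved.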
